A study of Mus musculus with 28 samples.

Results

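Transcript levels of 9 genes of the interleukin-6 (IL-6) signalling chain were followed in CD4+ T cells of the mouse small intestine after an antibody against CD3. The set is a list of gene symbols; no cut-off on measured values enters its rule, though it was drawn up with earlier results of these data known. It holds the receptor genes Il6ra and Il6st, the Janus kinase genes Jak1 and Jak3, the transcription factor gene Stat3, the suppressors of cytokine signalling Socs1 and Socs3, and the kinase genes Pim1 and Pim2. All 9 were found, once each, among the 25124 genes of the deposited table.

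As background, IL-6 binds its receptor chain, encoded by Il6ra, and the pair then engages the shared signalling chain gp130, encoded by Il6st. Janus kinases bound to gp130, Jak1 foremost, phosphorylate STAT3, which enters the nucleus and acts as a transcription factor. Socs3 is a STAT3 target whose product binds gp130 and shuts the signal off, and Pim1 is a STAT3 and STAT5 target whose product supports survival and growth. In CD4+ T cells IL-6 and STAT3 are best known for the differentiation of Th17 cells, which are abundant in the small intestine of mice with a flora. Jak3 works with the common gamma chain of the IL-2, IL-7, IL-15 and IL-21 receptors rather than with gp130, and it pairs there with Jak1.

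Cells were sorted as live CD45+, CD90.2+, TCRb+ and CD4+ from the small intestinal lamina propria of mice that carried a ZsGreen reporter of T-bet in every group; per the labels' protocols the gate did not use ZsGreen. The mice had a flora (specific-pathogen-free, SPF) or lacked one (germ-free, GF). They had received either anti-CD3 (aCD3), an antibody that binds the T cell receptor complex, or its isotype control. The groups were SPF isotype with 6 libraries (3 female, 3 male), SPF aCD3 with 6 (3 female, 3 male), GF isotype with 10 (5 female, 5 male) and GF aCD3 with 6 (1 female, 5 male). Age, dose and time after injection were not given in the sources used here, nor whether each library came from a separate animal, so p-values measure the spread between these libraries, which may be technical in part. SPF and GF libraries also lie in separate blocks of sample numbers, so flora and sample block cannot be told apart.

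Libraries held 6765529 to 17860612 reads in genes. Values are TPM, a transcript measure given as a share of each library's total, and aCD3 moved the median gene by −0.35 (log2) in SPF mice and by −0.15 in GF mice. Changes of the 9 genes are therefore given on the deposited TPM and again after median-of-ratios scaling ("after scaling"), which brings the median gene close to 0. The 8 CD4+ T cell marker genes summed to between 1780 and 2329 TPM in all 28 libraries. The GF aCD3 group was not uniform. Its libraries M1, M2 and M5 held 452.0 to 527.0 TPM of Lag3, a receptor gene induced by T cell activation, and 23.0 to 25.9% of TPM in histone genes, whereas F1, M3 and M4 held 9.59 to 17.0 TPM of Lag3 and 5.38 to 7.45% in histone genes. These 3 were inside the range of the GF isotype libraries, 5.41 to 18.5 TPM and 3.79 to 9.23%. Labels were kept as given, and every GF aCD3 mean is taken over both kinds of library. No fit leaves out F1, M3 and M4 together, since that would choose libraries by their response; each library's values and fits without each library in turn are given instead.

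In SPF mice, aCD3 was accompanied by a higher level of Jak3 and by lower levels of Jak1, Socs1, Pim2 and Il6st. These 5 of the 9 genes passed limma's test at an adjusted p under 0.05, 1 higher and 4 lower. Of all 12182 genes tested, 64.8% passed, 14.2% higher and 50.7% lower, so the share of the 9 that passed was not above the background. After median-of-ratios scaling 7 of 9 passed, 5 higher (Il6ra, Jak3, Stat3, Socs3, Pim1) and 2 lower (Jak1, Pim2), beside 60.0% of all genes, with 3680 higher and 3628 lower. Il6ra was among the tested genes mainly through aCD3 libraries that reached 1 TPM, so its call is not read as a result. Only Jak3, Jak1 and Pim2 passed in the same direction under both of these scalings.

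**Figure D1:**
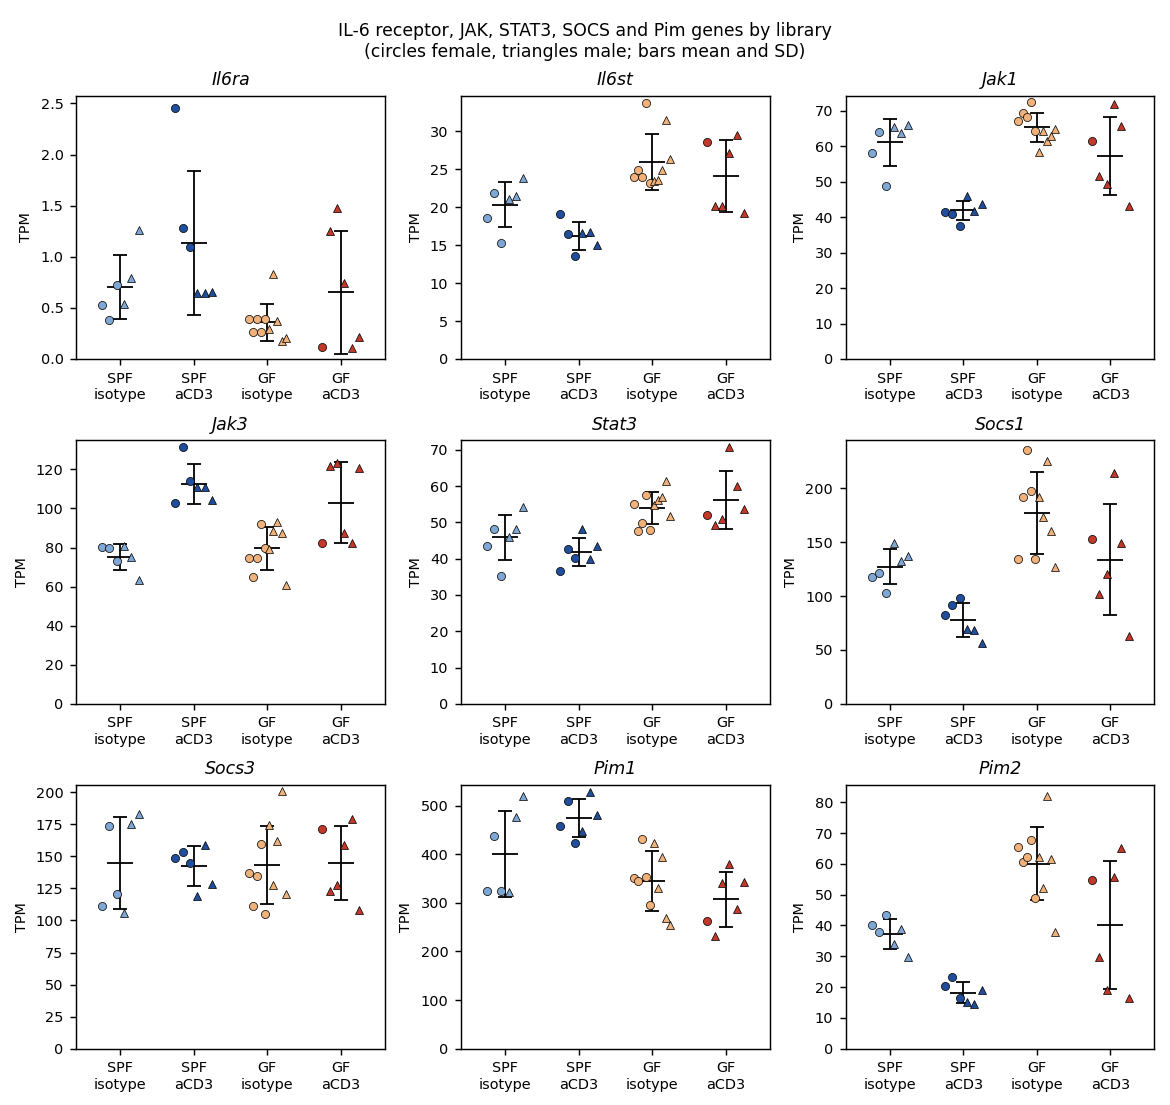
TPM of the 9 genes in each library (y axes from 0, a separate scale per gene) in the 4 groups, with female libraries as circles, male libraries as triangles, and bars for the mean and SD (n = 6, 6, 10 and 6). In SPF mice the Jak3 values lie apart upwards and the Jak1, Socs1 and Pim2 values apart downwards, while the GF aCD3 values of several genes are spread widely.

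The receptor genes did not move together. Il6ra, the ligand-binding chain (chr3:89869324-89913196, minus strand, mm10), was barely detected, with 6 to 181 recovered reads per library, and reached 1 TPM in exactly the 6 libraries that the filter required. These were SPF aCD3 F1, F2 and F3, GF aCD3 M1 and M2, and SPF isotype M3. Il6ra thus entered the test mainly through aCD3 libraries, and its calls that involve an aCD3 group are not read as results. In SPF isotype libraries it ranged from 0.382 to 1.26 TPM with a median of 0.632, and in SPF aCD3 libraries from 0.647 to 2.456 with a median of 0.878. The groups overlapped, and only 2 of 6 aCD3 libraries lay above every isotype library. Il6ra differed by 0.29 ± 0.20 (log2, SE, adjusted p = 0.22), or by 0.49 ± 0.21 after median-of-ratios scaling (adjusted p = 0.049). It differed by 0.97 with limma-voom (adjusted p = 0.063), where no 1 TPM is added to shrink changes of low genes, and by −0.16 among the male libraries (adjusted p = 0.66). In GF isotype libraries Il6ra ranged from 0.178 to 0.827 TPM with a median of 0.337. The GF aCD3 libraries spanned 0.104 to 1.475 TPM, with the high values in M2 and M1. Myeloid cells also carry Il6ra. Summed over the 9 myeloid marker genes, levels were 1.91 to 11.6 TPM in SPF isotype and 57.6 to 106 in SPF aCD3 libraries. Of these, Cd68 ran from 0 to 9.84 TPM under isotype and from 54.4 to 106 under aCD3, while C1qa and C1qb were at 0 in every SPF aCD3 library. Without Cd68 the other 8 summed to 0.704 to 2.12 and 0.263 to 3.49 TPM, and in GF mice to 0.085 to 7.31 (isotype) and 0.217 to 7.60 (aCD3). Their part in the Il6ra values was not tested.

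Il6st, the shared chain gp130 (chr13:112464070-112506860, plus strand), ranged from 15.3 to 23.8 TPM in SPF isotype libraries (median 21.3) and from 13.5 to 19.1 in SPF aCD3 libraries (median 16.6). The groups overlapped, with 2 of 6 aCD3 libraries below every isotype library. Il6st fell by 0.30 ± 0.12 (adjusted p = 0.033) on the deposited TPM, but stood at 0.09 ± 0.08 (adjusted p = 0.35) after median-of-ratios scaling, so the direction depended on the scaling. The call was also lost in 6 of 12 fits that left out a library. The 6 stromal marker genes summed to 4.42 to 42.1 TPM in SPF isotype libraries and 0.467 to 2.28 in SPF aCD3 libraries, and all 6 had a lower median there. Stromal cells also carry Il6st, and their part in this difference was not tested. In a bulk sample, fewer cells of a type and less RNA per cell cannot be told apart.

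The kinase genes diverged. Jak1, the main kinase of gp130 (chr4:101151974-101265282), ranged from 48.9 to 66.1 TPM in SPF isotype libraries (median 63.9) and from 37.6 to 45.8 in SPF aCD3 libraries (median 41.6). On the deposited TPM all 6 aCD3 libraries lay below all 6 isotype libraries. After median-of-ratios scaling the groups overlapped, at 49.5 to 58.1 under aCD3 and 56.5 to 63.3 under isotype. Jak1 fell by 0.53 ± 0.10 (adjusted p = 6.6e-05), and by 0.12 ± 0.05 after median-of-ratios scaling (adjusted p = 0.028), so most of its fall was shared with the median gene. With limma-voom Jak1 differed by −0.12 (adjusted p = 0.054) and did not pass. Jak1 lies on the minus strand and overlaps Raver2 on the plus strand, and whether reads were counted by strand is not given in the sources used here. Jak3, the kinase of the common gamma chain (chr8:71676383-71688313, plus strand), went the other way, from 63.1 to 80.5 TPM (median 77.5) in SPF isotype libraries to 102.7 to 131.3 (median 111.1) in SPF aCD3 libraries. Again the groups did not overlap. Jak3 rose by 0.57 ± 0.12 (adjusted p = 0.0002), and by 0.98 ± 0.16 after median-of-ratios scaling (adjusted p = 2.1e-05). It was the only one of the 9 that passed upwards on the deposited TPM. Across all genes, 41.9% did not overlap between these groups, 8.57% of them upwards and 33.4% downwards as shares of all genes tested.

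Stat3, the transcription factor of the chain (chr11:100886806-100939540, minus strand), ranged from 35.2 to 54.1 TPM in SPF isotype libraries (median 47.0) and from 36.7 to 48.1 in SPF aCD3 libraries (median 41.4). The values overlapped almost fully. Stat3 differed by −0.12 ± 0.09 (adjusted p = 0.21) on the deposited TPM and by 0.28 ± 0.06 after median-of-ratios scaling (adjusted p = 0.00041). Quantile normalization gave 0.0875 (adjusted p = 0.22) and TPM without Rn45s and the histone genes 0.14 (adjusted p = 0.083), so the call depended on the scaling.

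The suppressor genes also parted. Socs1, which restrains interferon and common gamma chain signals (chr16:10783809-10785536, minus strand), ranged from 103 to 150 TPM in SPF isotype libraries (median 127) and from 56.9 to 98.1 in SPF aCD3 libraries (median 75.8). The groups did not overlap. Socs1 fell by 0.71 ± 0.21 (adjusted p = 0.0042), and by 1.10 among the male libraries (adjusted p = 0.013). After median-of-ratios scaling the difference was −0.30 ± 0.17 (adjusted p = 0.12). The groups then overlapped, with SPF aCD3 F3 at 129.0 and SPF isotype F2 at 110.2. Socs1 still passed with quantile normalization (−0.57, adjusted p = 0.011) and without Rn45s and the histone genes (−0.45, adjusted p = 0.047). It did not pass with limma-voom (−0.29, adjusted p = 0.16). Socs3, the STAT3-induced inhibitor of gp130 (chr11:117966087-117969366, minus strand), ranged from 106 to 183 TPM in SPF isotype libraries (median 147) and from 119 to 159 in SPF aCD3 libraries (median 147). The SPF aCD3 range lay within the SPF isotype range. Socs3 differed by 0.00 ± 0.16 (adjusted p = 0.98), by 0.42 ± 0.15 after median-of-ratios scaling (adjusted p = 0.021), and by 0.13 after quantile normalization (adjusted p = 0.51). Without Rn45s and the histone genes it differed by 0.27 (adjusted p = 0.12).

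To show what the SOCS genes, gp130 and STAT3 genes carry just upstream of their starts, the 250 bases before each start were read from RefSeq (GRCm38.p6, the assembly of mm10). The window met the start in the deposited table for 8 of the 9 genes, and for Jak1 it began at another start and was not used. The windows were searched on both strands for TTCNNNGAA, the core of a STAT site, and for TTANNNGAA, a variant with a changed base. Capitals mark the match, and each sequence runs 5′ to 3′ on the strand of its gene.
Socs3, chr11:117969367-117969616, minus strand: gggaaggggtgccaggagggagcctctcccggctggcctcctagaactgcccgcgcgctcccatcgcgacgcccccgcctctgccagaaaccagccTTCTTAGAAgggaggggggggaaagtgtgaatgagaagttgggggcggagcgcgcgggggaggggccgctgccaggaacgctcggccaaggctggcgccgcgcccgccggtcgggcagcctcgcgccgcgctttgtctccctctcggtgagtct
Socs1, chr16:10785537-10785786, minus strand: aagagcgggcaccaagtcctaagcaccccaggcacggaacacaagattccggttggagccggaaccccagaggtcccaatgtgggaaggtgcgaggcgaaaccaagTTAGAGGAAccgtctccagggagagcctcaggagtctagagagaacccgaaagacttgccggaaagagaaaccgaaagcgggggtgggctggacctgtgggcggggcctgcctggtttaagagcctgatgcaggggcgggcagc
Il6st, chr13:112463820-112464069, plus strand: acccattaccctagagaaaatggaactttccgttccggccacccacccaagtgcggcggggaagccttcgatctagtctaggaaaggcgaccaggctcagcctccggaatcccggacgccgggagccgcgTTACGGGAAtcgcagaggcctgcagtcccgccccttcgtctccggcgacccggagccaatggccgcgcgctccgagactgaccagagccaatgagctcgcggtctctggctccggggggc
Stat3, chr11:100939541-100939790, minus strand: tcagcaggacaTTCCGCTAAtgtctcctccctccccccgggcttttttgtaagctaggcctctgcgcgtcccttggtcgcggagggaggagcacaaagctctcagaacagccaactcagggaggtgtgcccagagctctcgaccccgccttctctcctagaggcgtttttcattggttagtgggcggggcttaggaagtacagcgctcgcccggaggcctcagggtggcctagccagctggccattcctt
Socs3 held TTCTTAGAA, starting 154 bases before its start. It was the only one of the 8 with TTCNNNGAA, which 7.02% of 32851 such windows hold. The variant TTANNNGAA was found in Il6st at 120 bases, Socs1 at 144 and Stat3 at 239, the last on the opposite strand, and 9.08% of windows hold it. Neither form was found in the windows of Il6ra, Jak3, Pim1 or Pim2. A match describes the letters of the sequence and not a bound site.

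The Pim kinases, which share a fold and many substrates, differed as well. Pim1 (chr17:29493085-29496110, plus strand) ranged from 322 to 519 TPM in SPF isotype libraries (median 381) and from 424 to 527 in SPF aCD3 libraries (median 469). The groups overlapped. Pim1 differed by 0.27 ± 0.15 (adjusted p = 0.11) on the deposited TPM, by 0.68 ± 0.16 after median-of-ratios scaling (adjusted p = 0.00057), and by 0.084 ± 0.15 after quantile normalization (adjusted p = 0.66). Pim2 (chrX:7878306-7883432, plus strand) ranged from 29.6 to 43.5 TPM in SPF isotype libraries (median 38.5) and from 14.6 to 23.4 in SPF aCD3 libraries (median 17.9), with no overlap. Pim2 fell by 1.01 ± 0.24 (adjusted p = 0.00077), and by 0.61 ± 0.20 after scaling (adjusted p = 0.011). After scaling the groups overlapped slightly, with SPF aCD3 F2 at 28.39 and SPF isotype M3 at 28.35. Pim2 had the largest fall of the 9 under both of these scalings. Among the male libraries alone its fall of 1.02 had an adjusted p of 0.054. The 7 B and plasma cell marker genes summed to 95.8 to 272 TPM in SPF isotype libraries and 2.55 to 8.82 in SPF aCD3 libraries, so both they and Pim2 were lower under aCD3. Jchain ran from 87.4 to 259 TPM under isotype and from 0.128 to 1.55 under aCD3, and Cd79b from 3.70 to 7.88 and from 1.10 to 6.80. Of the 7, 6 had a lower median under aCD3. Within the SPF isotype libraries, M3 had the highest marker sum (271.6 TPM) and the lowest Pim2 (29.6 TPM). F3 had the lowest marker sum (95.8) and the highest Pim2 (43.5). GF isotype libraries had a lower median sum than SPF isotype libraries (33.8 against 179.8 TPM) but a higher median Pim2 (61.8 against 38.5). The part of these markers in the fall of Pim2 was not tested.

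**Figure D2:**
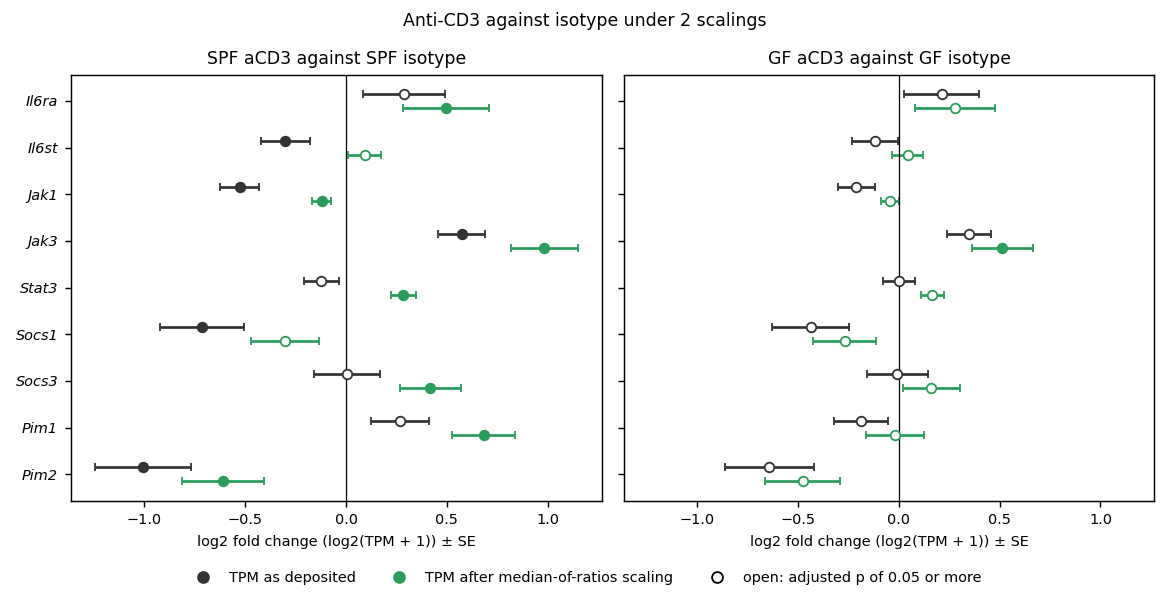
Log2 fold change of each gene on log2(TPM + 1), with its SE, for aCD3 against isotype in SPF mice (left) and GF mice (right), on the deposited TPM (dark) and after median-of-ratios scaling (green); filled points have an adjusted p under 0.05. In SPF mice scaling moves all 9 points upwards, and Il6st and Stat3 cross 0.

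Ratios of related genes within a library do not depend on the scaling and are given as a description, since they were chosen after the values were seen. Jak3 over Jak1 was 0.955 to 1.49 in SPF isotype and 0.931 to 1.51 in GF isotype libraries, and 2.39 to 3.20 in SPF aCD3 libraries. In GF aCD3 libraries it was 2.36, 2.50 and 2.80 in M1, M2 and M5, and 1.34, 1.22 and 1.25 in F1, M3 and M4. The first 3 lay near the SPF aCD3 range and the others within the isotype range. Pim1 over Pim2 was 7.48 to 17.5 in SPF isotype, 21.8 to 36.1 in SPF aCD3 and 4.35 to 6.95 in GF isotype libraries. The GF aCD3 values were 7.75, 17.8 and 20.8 in M1, M2 and M5, all above the GF isotype range, and 4.79, 6.83 and 4.42 in F1, M3 and M4. Socs3 over Socs1 was 0.706 to 1.43 in SPF isotype, 1.48 to 2.32 in SPF aCD3 and 0.574 to 1.25 in GF isotype libraries. In GF aCD3 it lay between 0.741 and 1.72, and only M5 was above the GF isotype range. A ratio shows unequal change and not which gene changed.

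**Figure D3:**
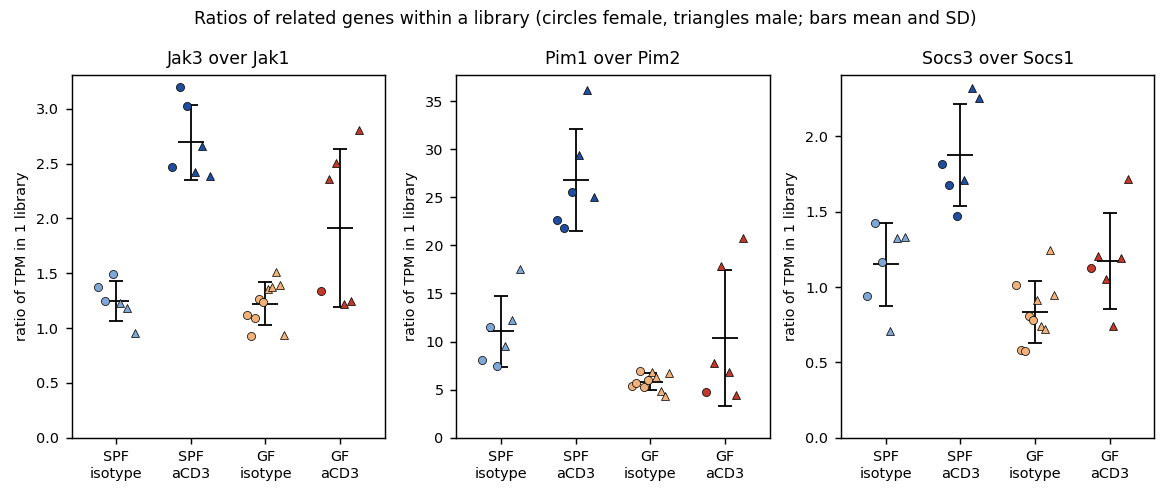
Ratio of TPM within each library for Jak3 over Jak1, Pim1 over Pim2 and Socs3 over Socs1 (y axes from 0), with bars for the mean and SD. All 3 ratios are higher in every SPF aCD3 library than in any SPF isotype library, and the GF aCD3 libraries are split for Jak3 over Jak1. For Pim1 over Pim2, GF aCD3 M2 and M5 lie apart upwards, while M1 lies near M3.

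In GF mice, none of the 9 genes passed limma's test for aCD3 against isotype. At an unadjusted p under 0.05 there were 4 (Jak3, Pim2, Jak1 and Socs1), and limma-voom on recovered reads called 1, Jak3. Of all genes tested, 7.08% passed, 2.46% higher and 4.61% lower. After median-of-ratios scaling 1 of 9 passed, Jak3, beside 9.65% of all genes. None of the 9 was free of overlap between these groups, beside 0.0657% of all genes. That background was itself unstable: 862 genes passed with all libraries, and 0 in 13 of the 16 fits that left out a library, namely each of the 10 GF isotype libraries and M1, M2 or M5. Without F1, M3 and M4, 3630, 4213 and 3859 passed, respectively. The members called in those last 3 fits were 2, 4 and 3.

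Jak3 in GF isotype libraries ranged from 60.9 to 92.9 TPM (median 79.5). The GF aCD3 libraries M1, M2 and M5 had 121.6, 123.4 and 120.8 TPM, and F1, M3 and M4 had 82.4, 87.6 and 82.2. The first 3 were above every isotype library and the others inside the isotype range. Over all 6 libraries the difference was 0.35 ± 0.11 (adjusted p = 0.051), and 0.51 ± 0.15 after median-of-ratios scaling (adjusted p = 0.042). The GF libraries came in separate blocks of sample numbers, and within these the difference was 0.33 and 0.24 (adjusted p = 0.36 and 0.73), with an adjusted p of 0.035 for all GF libraries when the block was a term of the fit. Over the 16 fits that left out a library Jak3 ran from 0.29 to 0.42, with adjusted p from 0.0139 to 0.184. It passed without F1, M3 or M4 and in none of the other 13.

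Pim2 in GF isotype libraries ranged from 37.9 to 82.1 TPM (median 61.8). In GF aCD3 libraries it was 29.9, 19.1 and 16.5 TPM in M1, M2 and M5, below every isotype library, and 54.6, 55.6 and 65.2 in F1, M3 and M4. After scaling M2 and M5 remained below the isotype libraries, at 21.4 and 19.9 against 33.2 or more, and M1, at 33.5, did not. The difference was −0.64 ± 0.22 (adjusted p = 0.06; −0.48 ± 0.19 and 0.082 after scaling), −0.996 within one sample block and −0.35 within the other (adjusted p = 0.32 and 0.77). Leaving out a library gave −0.81 to −0.45, with adjusted p from 0.012 to 0.22, and the difference passed without F1, M3 or M4 and in none of the other 13 fits. The B and plasma cell markers summed to 6.67, 8.29 and 7.29 TPM in M1, M2 and M5, and to 19.4, 97.7 and 30.6 in F1, M3 and M4. Their part in the Pim2 values was not tested.

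Socs1 in GF isotype libraries ranged from 127 to 235 TPM (median 182). The GF aCD3 libraries held 101.9, 120.7 and 63.0 TPM in M1, M2 and M5, below every isotype library, and 152.5, 214.5 and 149.4 in F1, M3 and M4. After scaling only M5, at 75.8, was below the isotype libraries, which held 111 to 204. The difference was −0.44 ± 0.19 (adjusted p = 0.11; −0.27 ± 0.16 and 0.23 after scaling), and −0.50 and −0.37 within the sample blocks (adjusted p = 0.42 and 0.73). Leaving out a library gave −0.59 (without M3, adjusted p = 0.0174, the only fit of the 16 that passed) to −0.25 (without M5, adjusted p = 0.36). Jak1 ranged from 58.4 to 72.6 TPM in GF isotype libraries. In GF aCD3 it was 51.5, 49.3 and 43.1 in M1, M2 and M5, and 61.5, 71.9 and 65.8 in F1, M3 and M4. After scaling only M5, at 51.8, was below the isotype libraries, which held 53.7 to 59.1. The difference was −0.21 ± 0.09 (adjusted p = 0.10), but −0.04 ± 0.04 after scaling (adjusted p = 0.50), and −0.11 and −0.21 within the blocks (adjusted p = 0.68 and 0.73). Leaving out a library gave −0.28 (without M3, adjusted p = 0.0185) to −0.14 (without M5, adjusted p = 0.325), and Jak1 passed without M3 or M4 only.

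Of the remaining genes in GF mice, none had an unadjusted p under 0.05 on the deposited TPM. Il6st ranged from 23.2 to 33.7 TPM under isotype and was 20.1, 20.2 and 19.2 in M1, M2 and M5, below that range, and 27.1 to 29.5 in the others (difference −0.12 ± 0.11, adjusted p = 0.45; 0.04 ± 0.08 after scaling, where all 6 were inside the isotype range). Stat3 ranged from 47.7 to 61.4 TPM under isotype and from 49.4 to 70.8 under aCD3, where M3 alone was above the isotype range (difference 0.00 ± 0.08). After scaling M1, M2, M3 and M5 were above it, and Stat3 differed by 0.17 ± 0.06 (unadjusted p = 0.0082, adjusted p = 0.06). Socs3 ranged from 105 to 201 TPM under isotype and from 108 to 179 under aCD3, fully inside it (−0.01 ± 0.15, adjusted p = 0.98; 0.16 ± 0.14 and 0.44 after scaling). Pim1 ranged from 254 to 432 TPM under isotype and from 232 to 380 under aCD3, with only M1 below the isotype range (−0.19 ± 0.13, adjusted p = 0.31; −0.02 ± 0.14 and 0.94 after scaling). The difference for Il6ra was 0.21 ± 0.19 (adjusted p = 0.41; 0.28 ± 0.20 and 0.33 after scaling), and 0.66 with limma-voom (adjusted p = 0.40). Counted by library on the deposited TPM, the values outside the GF isotype range were 7, 6 and 5 of the 9 genes in M1, M2 and M5, beside 61.4, 61.7 and 65.0% of all genes tested. They were 1 of 9 in each of F1, M3 and M4, beside 15.4, 23.5 and 13.9%. In both sets the 9 genes were near the background.

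**Figure D4:**
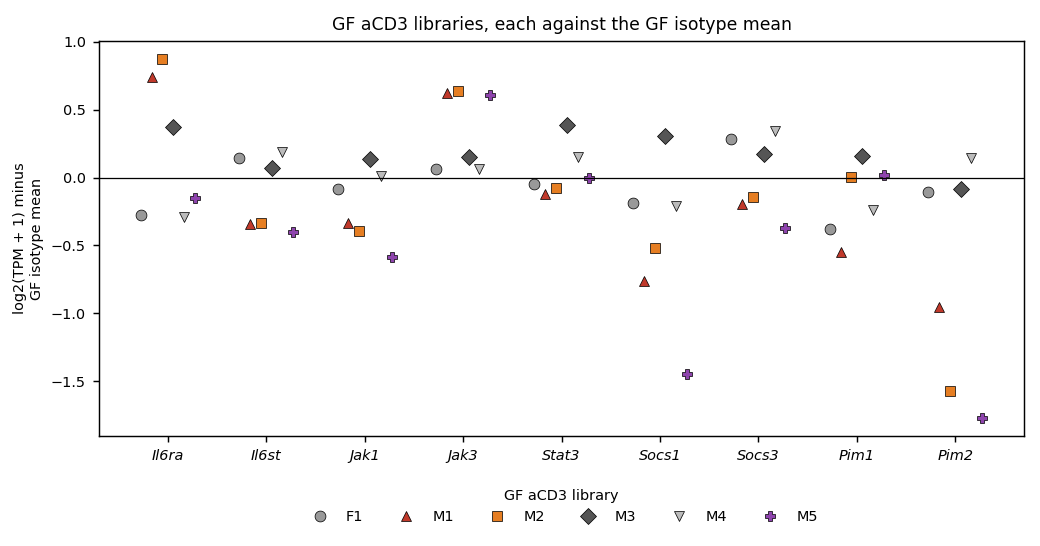
Difference of each GF aCD3 library from the GF isotype mean in log2(TPM + 1) of the deposited TPM (y axis), for each of the 9 genes (x axis), with a symbol per library. M1, M2 and M5 lie together above 0 for Jak3 and below 0 for Il6st, Jak1, Socs1 and Pim2, and F1, M3 and M4 lie closer to 0 for Jak3, Jak1 and Pim2.

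Between GF and SPF mice under isotype, none of the 9 genes passed limma's test, 4 had an unadjusted p under 0.05 (Il6st, Stat3, Socs1, Pim2), and limma-voom called 0. Of all genes, 7.17% passed, 6.42% higher in GF and 0.755% lower; these 874 genes became 325 without SPF isotype F3 and 569 without SPF isotype F1. After median-of-ratios scaling none of the 9 passed, beside 1.67% of all genes, and none was free of overlap between the groups, beside 2.63% of all genes. Pim2 held 29.6 to 43.5 TPM in SPF and 37.9 to 82.1 in GF isotype libraries, a difference of 0.66 ± 0.21 (adjusted p = 0.06; 0.49 and 0.19 after median-of-ratios scaling). Il6st differed by 0.34 ± 0.11 (adjusted p = 0.057), Stat3 by 0.24 ± 0.08 (adjusted p = 0.059) and Socs1 by 0.46 ± 0.19 (adjusted p = 0.13), beside a median gene at 0.15. After scaling these were 0.18, 0.08 and 0.29, with adjusted p of 0.27, 0.62 and 0.42. Il6ra differed by −0.32 ± 0.18 (−1.27 with limma-voom, adjusted p = 0.21) and Pim1 by −0.21 ± 0.13, with adjusted p of 0.27 and 0.33; after scaling they stood at −0.35 and −0.37. Jak1, Jak3 and Socs3 differed by 0.10, 0.07 and 0.00, and by −0.06, −0.09 and −0.17 after scaling, with no call under either. Stromal marker genes summed to a median of 24.0 TPM in SPF and 1.23 in GF isotype libraries, and B and plasma cell marker genes to 179.8 and 33.8. Their part in the differences between the isotype groups was not tested.

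Under aCD3, 6 of 9 genes passed between GF and SPF mice, 5 higher in GF (Il6st, Jak1, Stat3, Socs1, Pim2) and 1 lower (Pim1). Of all genes 53.3% passed, 48.9% higher and 4.46% lower, with the median gene at 0.34. After median-of-ratios scaling 5 of 9 passed, 1 higher (Pim2) and 4 lower (Il6ra, Jak3, Socs3, Pim1), beside 32.7% of all genes, with 1955 higher and 2033 lower. Pim1 and Pim2 were the genes that passed in the same direction under both scalings. All 6 GF aCD3 libraries, at 232 to 380 TPM of Pim1, lay below all 6 SPF aCD3 libraries, at 424 to 527, a separation in this direction that 0.780% of all genes tested showed. Pim1 was lower in GF by 0.66 on the log2 scale (−0.66 ± 0.15, adjusted p = 0.0013; −1.07 ± 0.16 and 6.7e-05 after scaling). The libraries with high Lag3, M1, M2 and M5, held 231.8, 340.7 and 343.6 TPM of Pim1, and F1, M3 and M4 held 261.6, 379.8 and 287.9. Pim2 was higher in GF by 1.02 ± 0.25 (adjusted p = 0.002; 0.63 ± 0.21 and 0.024 after scaling), with overlapping groups. M2 and M5, at 19.1 and 16.5 TPM, lay inside the SPF aCD3 range of 14.6 to 23.4, and M1, F1, M3 and M4 above it, at 29.9, 54.6, 55.6 and 65.2. The B and plasma cell markers of F1, M3 and M4 summed to 19.4, 97.7 and 30.6 TPM, above the 2.55 to 8.82 of the SPF aCD3 libraries, and their part in this difference was not tested. Il6ra differed by −0.39 ± 0.21 (adjusted p = 0.11), by −0.57 after scaling (0.048) and by −1.58 with limma-voom (0.02). Since Il6ra passed the filter mainly through aCD3 libraries, these calls are not read as results.

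The other 4 genes that passed under aCD3 on the deposited TPM did not pass after median-of-ratios scaling. Socs1 differed by 0.73 ± 0.21 (adjusted p = 0.0067) and by 0.33 (0.15) after scaling. Il6st differed by 0.52 ± 0.12 (adjusted p = 0.002) and by 0.13 (0.24), and Jak1 by 0.42 ± 0.10 (adjusted p = 0.002) and by 0.02 (0.80). Stat3 differed by 0.36 ± 0.09 (adjusted p = 0.0022) and by −0.04 (0.64), so its direction turned with the scaling. Il6st and Stat3 did not overlap between the groups on the deposited TPM, at 19.2 TPM or more against 19.1 or less and at 49.4 or more against 48.1 or less, beside 13.0% of all genes. Both gaps were small against the spread within the groups.

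The difference of the aCD3 effects, GF minus SPF, was tested as an interaction. None of the 9 genes passed in limma, 2 had an unadjusted p under 0.05, and limma-voom called 1, Pim1; of all genes 3.48% passed. Pim1 had the effect 0.27 in SPF and −0.19 in GF mice, a difference of −0.46 ± 0.20 (adjusted p = 0.12). After median-of-ratios scaling the difference was −0.70 ± 0.21 (adjusted p = 0.038), beside 11.3% of all genes, and after quantile normalization it was −0.25 ± 0.21 (adjusted p = 0.42). Jak1 differed by 0.32 ± 0.13 (adjusted p = 0.11), or 0.08 after scaling. Jak3 differed by −0.23 ± 0.16 (adjusted p = 0.33), or −0.47 ± 0.22 after scaling (unadjusted p = 0.045, adjusted p = 0.14). For Socs3, Stat3 and Il6ra the differences were −0.01 ± 0.22, 0.12 ± 0.12 and −0.07 ± 0.28, and −0.26, −0.12 and −0.22 after scaling, so that Stat3 turned direction with no call under either. For Pim2, Socs1 and Il6st they were 0.36, 0.28 and 0.18, and 0.13, 0.03 and −0.05 after scaling.

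The rest of the pathway was read from lists chosen with earlier results of these data known, which are given as counts. They are read beside the 14.2% of all genes that rose and the 50.7% that fell in SPF mice, or 30.2 and 29.8% after scaling. In SPF mice, 6 of 8 other JAK and STAT genes fell and 1 rose (median −0.41, beside −0.35 for all genes), or 3 and 1 after scaling. Jak2, a kinase of the IL-12 and IL-23 receptors and of gp130, fell from 98.7 ± 19.4 to 39.5 ± 3.26 TPM (SD, n = 6 each; −1.28, adjusted p = 6.9e-06; −0.87 after scaling). Stat4, the IL-12 transcription factor, fell by 0.96 (adjusted p = 0.00023; −0.56 after scaling), and Stat2, an interferon transcription factor, rose by 0.30 (adjusted p = 0.03; 0.69 after scaling). Of 7 other SOCS and Pim genes, 4 fell and none rose under both scalings. Cish, a STAT5-induced inhibitor, fell from 175 ± 26.6 to 58.6 ± 15.0 TPM (−1.59, adjusted p = 1e-05; −1.18 after scaling), and Socs4 fell by 0.86 (adjusted p = 1.4e-05; −0.47 after scaling).

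Of 9 gp130 cytokine genes, 5 reached the filter, and Il6, Il11, Ctf1 and Il27 did not, so the cells' own Il6 was too low to test. In SPF mice Lif rose from 5.12 ± 1.11 to 15.6 ± 9.45 TPM (1.23, adjusted p = 0.012; 1.61 after scaling) and Clcf1 fell by 1.06 (adjusted p = 0.00027; −0.72 after scaling). Of 7 genes for receptors that pair with gp130 or for proteases that release the soluble IL-6 receptor, 3 reached the filter, and Il11ra1, Lifr, Osmr and Cntfr did not. Il27ra, the partner of gp130 for IL-27, fell from 64.0 ± 6.61 to 36.2 ± 3.48 TPM (−0.80, adjusted p = 2.5e-05; −0.40 after scaling). Adam10, a protease, differed by −0.22 (adjusted p = 0.018) on the deposited TPM and by 0.17 (adjusted p = 0.017) after scaling, and so turned direction. Of 8 phosphatase and PIAS genes, which restrain the pathway, 6 fell and none rose, or 2 and 2 after scaling, with Pias1 at −1.18 and Pias2 at −0.95 (adjusted p = 1.3e-05 and 1.5e-05), or −0.81 and −0.62 after scaling.

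Of 15 other receptor genes that signal through STAT3 or through Jak1 and Jak3, 11 fell and 1 rose, or 8 and 1 after scaling, beside the 50.7 and 14.2% of all genes, or 29.8 and 30.2%. Il7r, the IL-7 receptor, fell from 378 ± 76.5 to 33.7 ± 8.43 TPM (−3.46, adjusted p = 3.1e-05; −3.05 after scaling), and Il23r, a Th17 receptor, fell by 1.30 (adjusted p = 0.00023; −0.96 after scaling). Il2ra, the high-affinity IL-2 receptor chain induced by T cell activation, rose from 11.2 ± 2.15 to 24.6 ± 4.17 TPM (1.07, adjusted p = 0.00088; 1.47 after scaling). Of 19 STAT3 target genes in T cells, 11 rose and 6 fell, or 12 and 3 after scaling, and their median was 0.42 (all genes −0.35). Il17f, a Th17 cytokine, rose from 1.68 ± 1.24 to 26.3 ± 13.0 TPM (3.29, adjusted p = 2.6e-06; 3.67 after scaling), and Il10 rose from 92.3 ± 11.7 to 654 ± 78.5 TPM (2.81, adjusted p = 4.6e-06; 3.23 after scaling). Junb and Rora, transcription factors of the same list, changed by −2.33 and −1.86 (adjusted p = 5.1e-06 and 5.9e-06), or −1.91 and −1.46 after scaling.

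In GF mice, 5 of the 65 list genes tested passed for aCD3 (7.69%, beside 7.08% of all genes). Socs2 changed by −0.95, Osm, a gp130 cytokine, by −0.68, Il7r by −1.77, Ifnar2 by −0.57 and Bcl3 by 0.81, or by −0.78, −0.54, −1.61, −0.41 and 0.96 after scaling. On the deposited TPM their adjusted p lay between 0.048 and 0.050, and each lost its call in 13 of the 16 fits that left out a library. After scaling, with 9.65% of all genes passing, 3 STAT3 targets and 1 gp130 cytokine gene passed upwards. Those that passed downwards were 2 other receptors and 1 gp130 cytokine gene. The JAK and STAT, the SOCS and Pim, and the phosphatase and PIAS lists each added 1 downwards. Under aCD3, 46 of the 65 list genes tested differed between GF and SPF mice (70.8%, beside 53.3% of all genes), 38 higher and 8 lower in GF. After scaling, with 32.7% of all genes passing, the counts higher and lower were 1 and 1 for the other JAK and STAT genes. They were 2 and 0 for other SOCS and Pim genes, 1 and 1 for gp130 cytokines, and 1 and 0 for gp130 partner and protease genes. For the other receptors they were 3 and 2, and for phosphatase and PIAS genes 2 and 0. GF mice had more of Cish (1.03 ± 0.25, adjusted p = 0.002; 0.63 after scaling) and of Jak2 (0.85 ± 0.19, adjusted p = 0.0013; 0.45) than SPF mice. Cish held 124 ± 67.0 TPM in GF aCD3 (mean, SD), beside 58.6 ± 15.0 in SPF aCD3 and 183 ± 39.3 in GF isotype. Jak2 held 75.9 ± 29.8, beside 39.5 ± 3.26 and 105 ± 15.0. The GF aCD3 means of this comparison are taken over both the high-Lag3 and the low-Lag3 libraries. Whether the differences hold within each kind was not tested. Of the 19 STAT3 targets, 6 were higher and 7 lower in GF mice, or 3 and 9 after scaling. Rora was higher (1.34, adjusted p = 0.00072; 0.95 after scaling), as was Junb on the deposited TPM (1.04, adjusted p = 0.012; 0.63 and 0.093 after scaling), and GF mice had less of Il17f (−3.05 ± 0.43, adjusted p = 7e-05; −3.40) and Il17a (−3.10 ± 0.77, adjusted p = 0.0024; −3.49). Between the isotype groups, 6 of the 65 list genes differed (9.23%, beside 7.17% of all genes). Ifnar1 and Il2rb, interferon and IL-2 receptor chains, were higher in GF mice (0.75, adjusted p = 0.012, and 0.59, adjusted p = 0.0048; 0.59 and 0.43 after scaling). Il23r was lower in GF mice under both scalings (log2 difference of −1.75, adjusted p = 0.00013; −1.85 after scaling).

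Genes with the most similar profile over the 28 libraries were listed by the root mean square difference of centred log2(TPM + 1), as a description with no test. The profile of Jak1 was closest to those of Dock11 (0.0623), Wapl and Atrx, beside its own spread of 0.280, and that of Il6st to Opa1 (0.115), Git2 and Micu2 beside 0.312. Jak3 was closest to Cox5b (0.127), Apobec3 and Ap2s1 beside 0.298, and the near profiles of Stat3 included Adam17 (0.111) and Larp4b (0.117) beside 0.219. Socs1 was closest to Hs6st1 (0.201) beside 0.548, and Pim2 to Dyrk2 (0.238) beside 0.734. For Socs3, Pim1 and Il6ra the nearest genes were Il17ra, Inf2 and Pou2af1 at 0.220, 0.199 and 0.261, not far below their own spreads of 0.268, 0.325 and 0.390. All of these profiles share the same libraries and their composition.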

How the data were processed

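RNA-seq of sorted CD4+ T cells was used from 28 libraries. HOMER produced the authors' deposited TPM from RefSeq transcripts of mm10, per the file headers; the deposited TPM were divided by the whole genomic span (length equal to end minus start in 99.24% of rows), so levels are not compared between genes. The submitters' processing notes list Cell Ranger 7.1.0, R 4.4.2 and Seurat 5.1.0 for the series, with no role given; the aligner version and use of strand are not given in the sources used here. The labels name both a total RNA kit and polyA RNA. A further 26 TPM columns of no sample were not used. Whole reads were recovered from TPM times length (100.0% whole within 0.15).

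Genes with at least 1 TPM in at least 6 libraries (12182) were tested on log2(TPM + 1), which understates changes of low genes, with limma 3.58.1 in R 4.3.3, with group means, sex and a trend, and Benjamini-Hochberg adjustment over all genes at 0.05. All 9 members passed the filter; apart from Il6ra each had at least 126 reads in each library. Median-of-ratios scaling, limma-voom on recovered reads and other alternatives were run, and the fitting was tested on simulated data. Named genes were all 9 members, up to 2 highest and 2 lowest called genes of each list and comparison, and the 3 nearest profiles of each member; some of these are not reported here. The members and lists were chosen with earlier results of these data known.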

Additional observations from a re-analysis of the deposited data

Results flagged for a closer look

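Il6ra reached 2.456 TPM in the SPF aCD3 library F1, against 0.647 to 1.282 in the other 5, and 0.827 TPM in the GF isotype library M2, against 0.178 to 0.393 in the other 9. Each lay farther from its group than Dixon's 95% limit allows. Of 36 sets of values checked 2 were found, and chance gives about 1 in 20.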

How the results depend on the processing

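Of the values of the 9 genes under settings other than leaving out a library, 475 kept their side of the threshold, 38 gained and 25 lost a call in the same direction, and 6 turned with a call under at least one setting. Of the 475, 40 had the other sign with no call under either setting, as had 51 of 732 when a library was left out. Il6st in SPF mice (aCD3 against isotype) became 0.0923 with median-of-ratios scaling and 0.10 with limma-voom, and Stat3 there 0.28 and 0.30; Stat3 in GF against SPF aCD3 became −0.0415 and −0.0469. Adam10 in SPF mice became 0.17 with median-of-ratios scaling, 0.0976 with quantile normalization, 0.0362 without Rn45s and histone genes and 0.19 with limma-voom. Median-of-ratios scaling, quantile normalization and limma-voom bring the median gene close to 0. Leaving out Rn45s and histone genes does not do so by construction. It moved the median gene from −0.35 to −0.14 for aCD3 in SPF mice, but from 0.15 to 0.19 between the isotype groups. Members called in SPF mice were 5, and 1 when a log2 change of at least 1 was also asked. In GF mice (aCD3 against isotype) the count was 0, but 1 with a 5 TPM filter, median-of-ratios scaling, quantile normalization, no Rn45s and histone genes, limma-voom or a sample-block term, 2 without the sex term and 4 with array weights. For GF against SPF isotype it was 0, but 1 with the 5 TPM filter, 4 without Rn45s and histone genes and 3 with array weights. For the difference of effects it was 0, but 1 with median-of-ratios scaling and limma-voom. The cause of the changes with array weights and without the sex term was not tested. Leaving out a library gave 4 to 5 (SPF), 0 to 4 (GF), 0 to 2 (isotype groups), 6 to 7 (aCD3 groups) and 0 to 1 (difference) members called; for the isotype groups the libraries were SPF isotype F2 and M3 and GF isotype M5, and for the difference SPF isotype F3 and GF aCD3 M5. Genes called in all numbered 7898 in SPF mice, but 1940 with the log2 change of 1. In GF mice they numbered 862, but 0 with a pseudocount of 0.1, no filter, males only or any GF isotype library, M1, M2 or M5 left out, 1 within each sample block, 2215 with the block term, 2472 without the sex term and 4006 with array weights. For the isotype groups they were 874, but 204, 178 and 224 with median-of-ratios scaling, quantile normalization and limma-voom, 325 without SPF isotype F3, 569 without SPF isotype F1, 1423 with array weights and 2359 without Rn45s and histone genes. For the aCD3 groups they were 6496, but 3988, 3348 and 3964 with median-of-ratios scaling, quantile normalization and array weights. For the difference they were 424, but 774 and 273 with pseudocounts of 0.1 and 5, 233 without the filter, 1382, 791 and 1856 with median-of-ratios scaling, quantile normalization and limma-voom, 171 with array weights, and from 32 without GF aCD3 F1 to 3187 without GF aCD3 M5. Depth limits Il6ra most, at 6 to 181 reads per library.

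Libraries with the same number were not tied by the labels, and correlations of their deviations ran from −0.21 to 0.20. Such correlations cannot tell whether these libraries shared a batch or day, so a pairing is neither shown nor excluded. With a replicate block, 6 members were called in SPF mice, 0 in GF mice, 1 for the isotype groups, 0 instead of 6 for the aCD3 groups and 0 for the difference. Genes called in all were then 0, 233, 2 and 162 for the last 4 of these comparisons.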
